A study of Mus musculus with 6 samples.

Results

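The genes described here are Trim30a, 3 further Trim30 genes that lie beside it on chromosome 7 (Trim30b, Trim30c and Trim30d), and 6 other TRIM genes with links to interferon, namely Trim12a, Trim12c, Trim34a, Trim21, Trim25 and Trim14. These 10 genes were picked by name from the TRIM family with their differences between H10 and C8 cells already known. Those differences are therefore given below as a description, with no test and in support of nothing. Of the 10 genes, 8 had an array feature of their own, Trim30b had only a feature shared with the gene model Gm38525, and Trim30c was matched to no feature, while the arrays covered 19930 genes in all. RNA of H10 and of C8 cells was hybridised to 3 arrays each after 2 days of culture with sRANKL at 60 ng/mL. Both lines are clones of RAW264.7, a mouse macrophage-like cell line, that had been transduced with a retroviral vector carrying Lifeact-mEGFP, a fluorescent label of actin filaments, and selected with puromycin. H10 cells fuse into multinucleated osteoclasts under sRANKL and C8 cells do not. Each phenotype rests on 1 clone, so differences tied to fusion and other differences between the clones cannot be told apart. No source states if the replicates of a line were independent cultures, so errors and p-values cover only how far these arrays differ, and that may be technical.

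TRIM proteins carry a RING domain, a B-box and a coiled coil, and most of them act as ubiquitin ligases. Many are made in response to interferons, which cells release on sensing a virus and which act back on cells through the receptor pair Ifnar1 and Ifnar2, the kinases Jak1 and Tyk2, and transcription factors that include Stat2 and Irf9. These and other IRF factors act at the interferon-stimulated response element (ISRE) in promoters. In macrophages, Trim30a is known to dampen signalling from Toll-like receptors by promoting the loss of TAB2 and TAB3, adaptors that also pass on the signal of RANK, the receptor for RANKL.

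The values are RMA-normalized log2 expression values as the authors deposited them, and all differences below are log2 differences of H10 minus C8. The median of each array lay between 7.65 and 7.74. The replicate 1 arrays of both lines stood apart from the others on the second principal component, which held 22.2% of the variance, with scores of 17.6 (H10) and 29.3 (C8) against -17.8 to -7.7 on the other 4 arrays. Of 8 macrophage markers measured, Csf1r, Cd68 and Lyz2 had means between 13.24 and 14.02 in both lines, and Adgre1 and Fcgr3 were higher in H10 cells by 2.02 (adjusted p = 0.00114 from limma) and 0.83 (adjusted p = 0.02). At an adjusted p under 0.05 in limma, 6 of 9 osteoclast markers were higher in H10 cells and 0 lower. Over all genes these shares were 1.85% and 1.04%. Ctsk, the collagen-degrading protease, was higher by 3.57 (adjusted p = 0.000138 from limma). Tnfrsf11a (0.26), Calcr (0.07) and Mmp9 (-0.34, adjusted p = 0.534 from limma) did not pass. The part of these markers in the values below was not tested. Of 8 measured markers of other cell types, among them lymphoid, granulocytic, mesenchymal, epithelial and endothelial cells, 0 passed the limma test (0 at an unadjusted p under 0.05), and their differences were between -0.10 and 0.08.

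All 8 genes with a feature of their own were higher in H10 cells, by 0.39 to 5.34, with a median of 0.56 against -0.03 over all genes. In the limma fit across all features, 5 of the 8 were higher at an adjusted p under 0.05, a mark that 1.85% of all genes reached in this direction, and 0 were lower, which 1.04% of all genes were. All 3 H10 arrays lay above all 3 C8 arrays for 8 of the 8, against 7.74% of all genes. Since the genes were picked with this comparison known, nothing is read from these counts. The 5 were Trim30a, Trim12c, Trim21, Trim34a and Trim12a. Without H10 replicate 3, without C8 replicate 2, without C8 replicate 3 or without the replicate 1 arrays of both lines the count was 3, and Trim30a, Trim12c and Trim21 made up the count each time. In RNA from whole cultures, a change in the share of cells and a change in RNA per cell cannot be told apart.

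**Figure D1:**
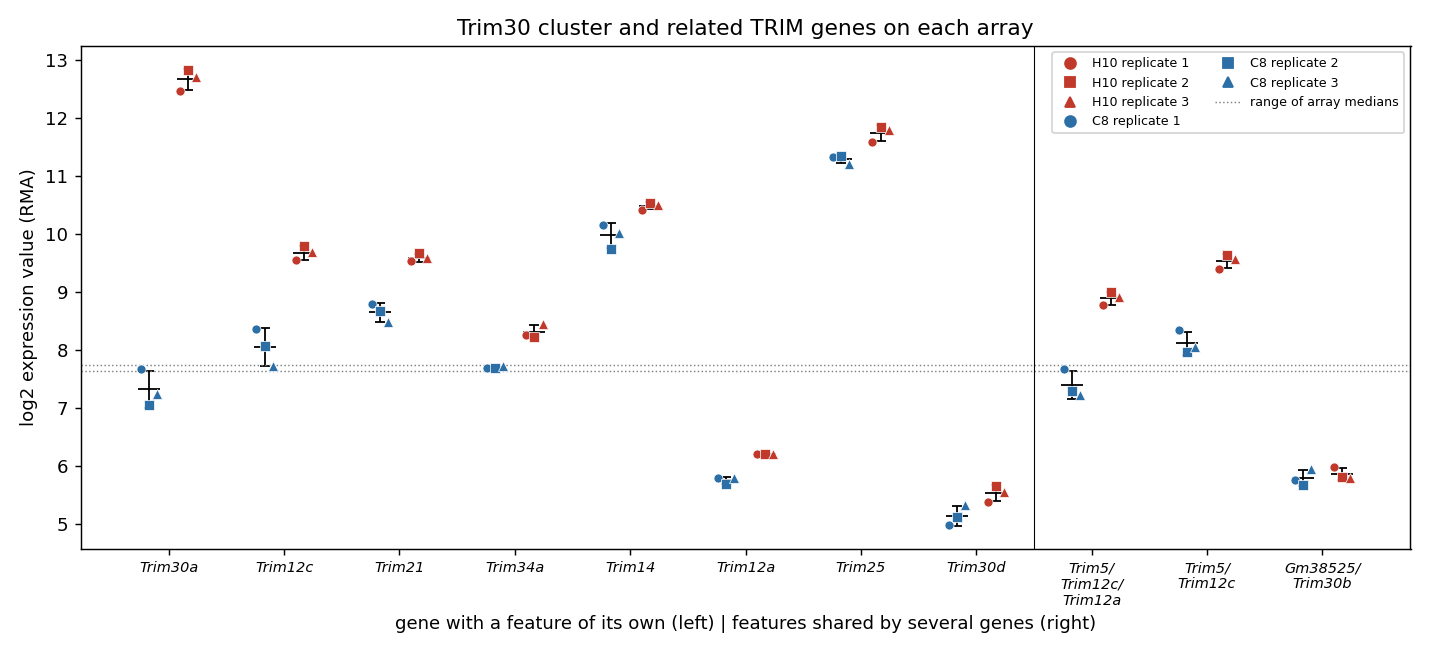
Log2 expression value (vertical axis) of each feature on the 3 C8 and 3 H10 arrays, with black bars for mean and SD per line (n = 3) and the range of array medians as dotted lines; genes with a feature of their own are on the left, and features annotated to several genes on the right. Trim30a has the widest gap between the lines, from a mean of 7.33 in C8 to 12.66 in H10 cells, and the shared feature of Trim30b and Gm38525 overlaps between them.

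Trim30a had the highest difference of all 19930 genes. Its log2 values were 12.46, 12.82 and 12.71 in the H10 line against 7.68, 7.06 and 7.24 in the C8 line. The lines were far apart on every pair of arrays, with means of 12.66 ± 0.18 (SD, n = 3) in H10 and 7.33 ± 0.32 in C8 cells. The difference was 5.34 (standard error 0.17, 95% interval 4.92 to 5.75), a 40.4-fold higher value in H10 cells. The C8 mean lay under the median of each C8 array, and no measure of background was used here, so the fold is uncertain in size. Trim30a, named Trim30 by the study, is among the genes it singled out on these arrays and took to RT-qPCR. Over days of osteoclast formation in RAW264.7 cells and bone marrow monocytes, the study found a significant rise only for CD109 among the tested genes. Those time courses did not compare H10 with C8 cells.

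The Trim30 paralogs beside it did not show a gap of that size on their features. Trim30d, whose product is closely related to that of Trim30a, had values of 5.39, 5.66 and 5.55 in the H10 line against 4.99, 5.12 and 5.33 in the C8 line, so that the lowest H10 array lay just above the highest C8 array. Its difference was 0.39 (standard error 0.11, 95% interval 0.12 to 0.65). The feature shared by Trim30b and Gm38525 had 5.99, 5.82 and 5.79 for H10 against 5.76, 5.68 and 5.95 for C8, which overlapped. Its difference was 0.07 (standard error 0.10, 95% interval -0.16 to 0.30). Both features lay under the lower quartile of every array (6.34 to 6.44), where a difference in RNA moves the value little. The pseudogene Trim30e-ps1, which follows Trim30d on the chromosome and is no member, had 5.34, 5.56 and 5.66 for H10 against 5.02, 5.08 and 5.28 for C8, a difference of 0.39 (standard error 0.11, adjusted p = 0.19 from limma). Whether the probes of these features also read Trim30a RNA was not tested.

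Trim12a and Trim12c, with the neighbouring Trim5, are mouse relatives of human TRIM5, which blocks retroviruses by binding their capsids. Trim12c had log2 values of 9.55, 9.79 and 9.69 in the H10 line against 8.37, 8.08 and 7.72 in the C8 line, so the lines did not overlap and the C8 arrays were the more spread. Its difference was 1.62 (standard error 0.17, 95% interval 1.22 to 2.02), a 3.07-fold higher value in H10 cells. Trim12a had 6.21, 6.21 and 6.22 for H10 against 5.79, 5.69 and 5.80 for C8, under the lower quartile of every array. Its difference was 0.45 (standard error 0.06, 95% interval 0.31 to 0.60). A further 2 features read these genes together. The feature shared by Trim5, Trim12c and Trim12a had 8.77, 9 and 8.91 for H10 against 7.68, 7.30 and 7.23 for C8, a difference of 1.49 (standard error 0.13). The feature shared by Trim5 and Trim12c had 9.40, 9.64 and 9.57 for H10 against 8.34, 7.97 and 8.05 for C8, a difference of 1.42 (standard error 0.12). On both shared features, as on the one of Trim12c alone, every H10 array was above every C8 array. If shared features are read too, the difference given to Trim12a is 1.49 in place of 0.45, so its size depends on which feature stands for it. How much of the shared signal comes from Trim5, which has no feature of its own, was not tested.

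Trim34a, an interferon-responsive gene between Trim6 and Trim5, had log2 values of 8.26, 8.22 and 8.45 in the H10 line against 7.69, 7.70 and 7.73 in the C8 line. The C8 arrays lay close together and all H10 arrays lay above them. The difference was 0.60 (standard error 0.08, 95% interval 0.42 to 0.79). The expression of its near copy Trim34b was not analysed here.

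Trim21 encodes a cytosolic receptor for antibody that directs antibody-coated virus to degradation. Its log2 values were 9.53, 9.67 and 9.58 in the H10 line against 8.79, 8.68 and 8.48 in the C8 line, a clear gap between the lines. The difference was 0.94 (standard error 0.09, 95% interval 0.72 to 1.17), a 1.92-fold higher value in H10 cells. Trim25, the ubiquitin ligase that activates the RNA sensor RIG-I, had 11.59, 11.84 and 11.79 for H10 against 11.33, 11.35 and 11.21 for C8. The lines did not overlap, and the difference was 0.44 (standard error 0.09, 95% interval 0.24 to 0.65). Trim14, which lacks a RING domain and serves as an adaptor of the mitochondrial protein MAVS, had 10.42, 10.54 and 10.50 for H10 against 10.16, 9.75 and 10.02 for C8. The difference was 0.51 (standard error 0.11, 95% interval 0.24 to 0.78), and C8 replicate 1 came nearest to the H10 arrays. Trim25 and Trim14 were among the 3 that did not reach an adjusted p under 0.05, the other being Trim30d. Trim25 reached it without H10 replicate 1 (0.52, adjusted p = 0.0497 from limma), and both Trim25 and Trim14 reached it with dim features filtered out.

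Within the lines, the genes also varied from array to array. H10 replicate 1 was the lowest H10 array for 6 of the 8 genes, Trim30a, Trim30d, Trim12c, Trim21, Trim25 and Trim14, against 31.1% of all genes. C8 replicate 1 was the highest C8 array for 4 of the 8, Trim30a, Trim12c, Trim21 and Trim14, against 41.6% of all genes. For those 4 genes both held at once, which was so for 11.6% of all genes. The gap between the lines was thus narrowest in the replicate 1 arrays for Trim30a, at 12.46 against 7.68. Without these arrays of both lines the difference of Trim30a was 5.62, and that of Trim12c was 1.84. The part of the replicate 1 arrays in the members' values was not tested beyond these fits.

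The promoters of these genes show how the copies on chromosome 7 relate to each other, and where the interferon element lies in them. The RefSeq windows of build GRCm38.p6 run from 250 bases before to 50 bases after an annotated start, and held 9 of the 10 genes, with 2 starts for Trim30a. Printed here are the pair most alike within the Trim30 genes, 1 window of Trim30a and that of Trim30d, then the Trim30c window, which resembles them but holds no match, and those of Trim12c and Trim21, the members with the next highest differences. They are written 5′ to 3′ in the direction of transcription, and the capitals mark matches to the ISRE letters GAAANNGAAA on either strand (TTTCNNTTTC on the other).
Trim30a, chr7:104465144-104465443, minus strand: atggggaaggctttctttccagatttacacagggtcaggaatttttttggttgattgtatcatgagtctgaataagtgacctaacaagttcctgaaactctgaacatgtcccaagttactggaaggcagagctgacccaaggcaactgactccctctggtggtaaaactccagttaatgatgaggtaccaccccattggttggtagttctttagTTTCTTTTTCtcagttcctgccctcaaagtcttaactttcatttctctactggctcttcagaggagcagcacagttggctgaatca
Trim30d, chr7:104507800-104508099, minus strand: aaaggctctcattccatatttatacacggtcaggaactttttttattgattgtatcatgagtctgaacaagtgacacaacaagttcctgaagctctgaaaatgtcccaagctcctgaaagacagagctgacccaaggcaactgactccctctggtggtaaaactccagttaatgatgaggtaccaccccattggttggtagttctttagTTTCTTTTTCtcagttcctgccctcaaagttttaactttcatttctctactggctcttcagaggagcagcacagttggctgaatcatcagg
Trim30c, chr7:104400729-104401028, minus strand: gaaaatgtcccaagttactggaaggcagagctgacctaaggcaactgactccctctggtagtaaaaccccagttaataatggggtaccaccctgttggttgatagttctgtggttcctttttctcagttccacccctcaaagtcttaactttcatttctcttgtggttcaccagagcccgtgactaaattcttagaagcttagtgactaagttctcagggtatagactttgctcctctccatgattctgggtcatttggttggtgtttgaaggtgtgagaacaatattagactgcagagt
Trim12c, chr7:104353300-104353599, minus strand: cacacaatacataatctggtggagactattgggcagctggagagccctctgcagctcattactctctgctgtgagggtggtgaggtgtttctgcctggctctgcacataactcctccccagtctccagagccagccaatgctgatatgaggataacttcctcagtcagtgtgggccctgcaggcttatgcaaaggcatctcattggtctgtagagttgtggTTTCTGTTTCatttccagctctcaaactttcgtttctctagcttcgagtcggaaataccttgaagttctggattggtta
Trim21, chr7:102565433-102565732, minus strand: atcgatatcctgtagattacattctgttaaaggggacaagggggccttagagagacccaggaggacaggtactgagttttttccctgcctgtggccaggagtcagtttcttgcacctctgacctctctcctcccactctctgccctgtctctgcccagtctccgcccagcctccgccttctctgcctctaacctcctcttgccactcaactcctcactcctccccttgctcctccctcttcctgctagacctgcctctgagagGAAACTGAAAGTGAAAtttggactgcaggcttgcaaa

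An ISRE match was found in the windows of 6 of the 9 genes, Trim30a, Trim30d, Trim12a, Trim12c, Trim34a and Trim21, against 3.99% of the 27025 genes with a window (3.44% of 32851 windows). The genes were picked with links to interferon in view and some windows are near copies of each other, so nothing is read from this share. Trim21 had 2 overlapping matches, from base 14 to 23 and from base 20 to 29 after its start. Both starts of Trim30a had the match TTTCTTTTTC, at -36 to -27 and at 3 to 12 counted from the start, and so did Trim30d, at -41 to -32. The window of Trim30d was 93.9% identical to the Trim30a window printed above over 294 aligned bases. On their features the difference was 0.39 for Trim30d, which lay under the lower quartile of every array, and 5.34 for Trim30a. The link of the windows to these values was not tested. Trim12c and Trim12a shared the match TTTCTGTTTC, and their windows were 94.6% identical over 261 aligned bases. Trim34a had TTTCAGTTTC at 11 to 20. The windows of Trim30b, Trim30c and Trim25 held no match, though that of Trim30c was 89.2% identical to the Trim30a window over 176 bases. The GAS letters TTCNNNGAA, which read the same on both strands, occurred in 1 of the 9 genes, Trim30c, against 9.55% of all genes with a window. A match is a description of letters and not a measured binding site.

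**Figure D2:**
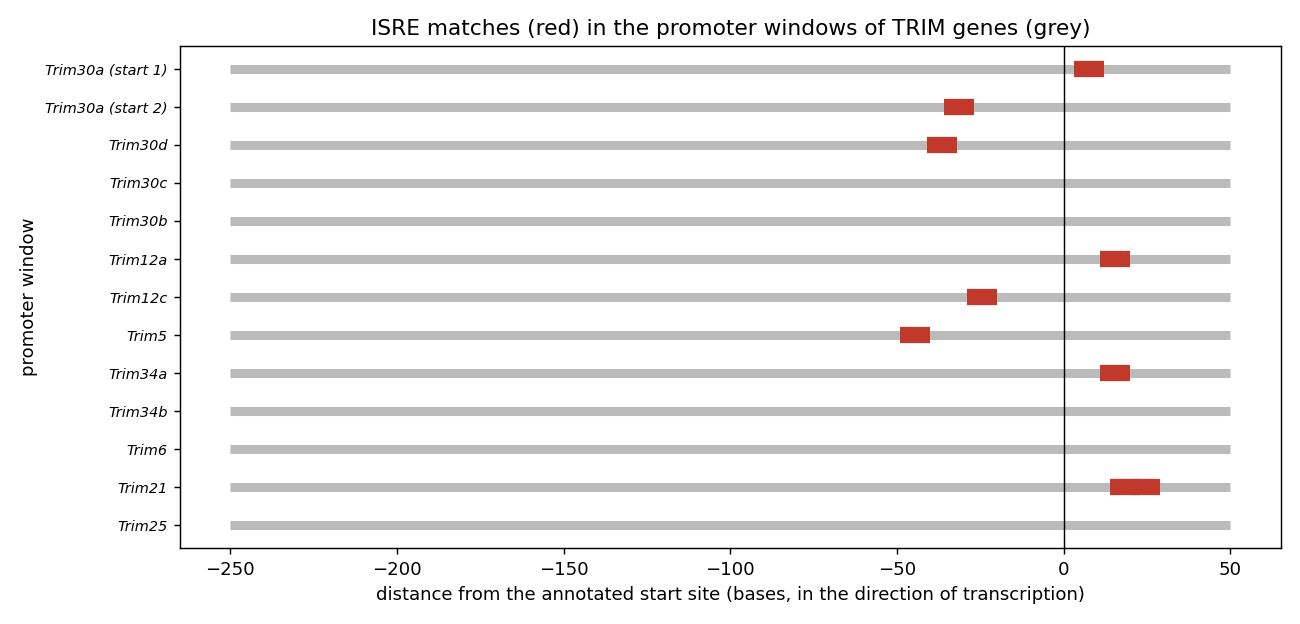
Position of each ISRE match (red) in the RefSeq promoter windows (grey) of the TRIM genes, with the distance from the annotated start in bases on the horizontal axis and the start as a vertical line. The matches of Trim30a, Trim30d, Trim12a, Trim12c, Trim5, Trim34a and Trim21 lie between 49 bases before and 29 bases after a start, and the windows of Trim30b, Trim30c, Trim34b, Trim6 and Trim25 hold none.

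The rest of the TRIM family gives the differences of the genes left after the 10 were taken out with their values known, so the contrast between both sets is partly set by that choice. Of 62 other TRIM genes listed by family membership, 54 had a feature of their own. In limma 0 of them were higher and 0 lower in H10 cells at an adjusted p under 0.05, against 1.85% and 1.04% of all genes. Without adjustment, 4 and 4 passed at p under 0.05, against 1216 and 1528 of 19930 genes. For 54 genes, counts of 0 are close to the shares over all genes. The median difference of the 54 was -0.03, the same as over all genes, and the range was -0.27 to 0.45. Of the 54, 24 in C8 and 25 in H10 cells had means under the median of each array of the line. There a difference in RNA moves the value little. The 95% interval lay within a 2-fold change in either direction for all 54. Those with the highest means were the corepressor gene Trim28 at -0.05 (adjusted p = 0.894), Trim33, which encodes a regulator of SMAD signalling, at 0.09 (adjusted p = 0.676), Trim27 at -0.14 (adjusted p = 0.512) and Trim8 at -0.02 (adjusted p = 0.953). Pml, an interferon-inducible gene of nuclear bodies chosen here after its value was seen, was at the top of the range. It had 10.76, 10.76 and 10.74 in the H10 line against 10.61, 10.14 and 10.15 in the C8 line, with a difference of 0.45 (standard error 0.13, adjusted p = 0.211). Without C8 replicate 1, the array nearest to H10 cells, it was 0.61 (adjusted p = 0.0126); over all settings tried, 0 or 1 of the genes with a feature of their own were higher. Trim6, the first gene of the chromosome 7 stretch, had a difference of -0.05 (adjusted p = 0.901). An ISRE match was present in 3 of 47 of these genes with a window, Trim5, Trim26 and Trim2. Trim26 had a difference of 0.22 (adjusted p = 0.393) and Trim2 of 0.00 (adjusted p = 0.992).

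**Figure D3:**
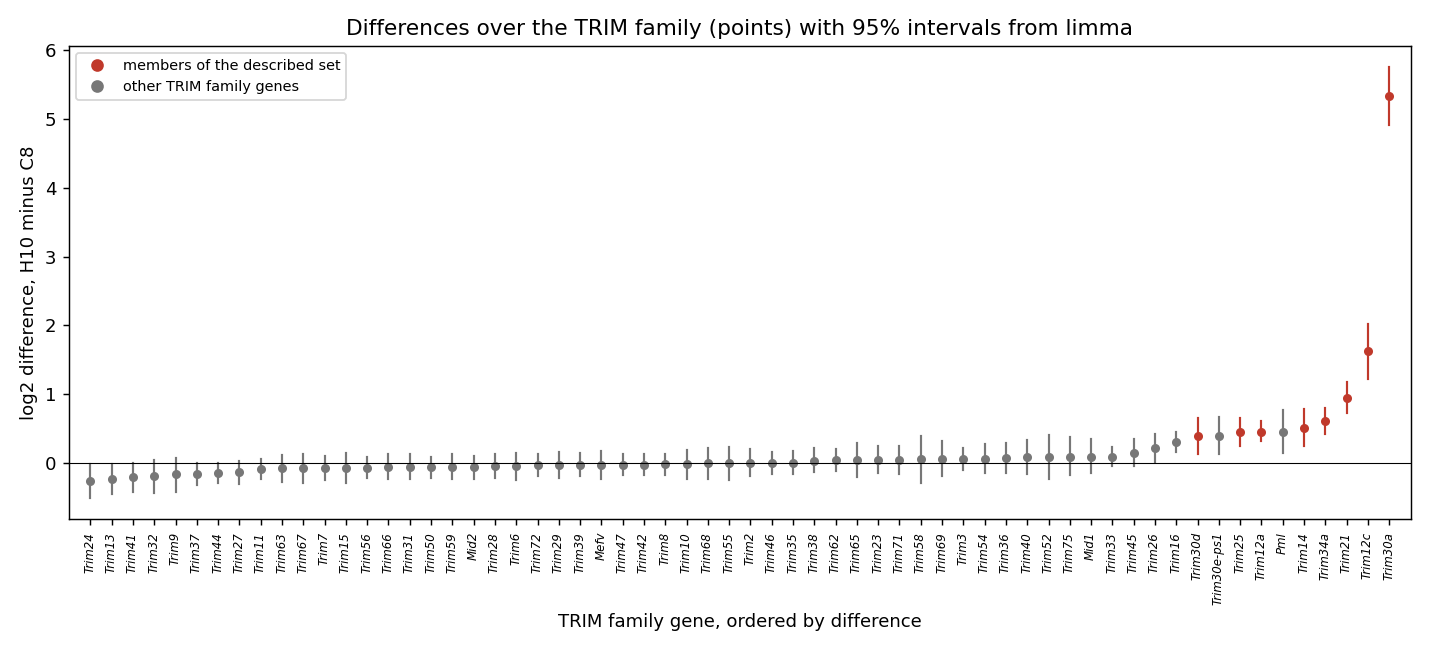
Log2 difference of H10 minus C8 (vertical axis) for each TRIM family gene with a feature of its own, ordered by difference, with 95% intervals from limma as vertical lines and the genes described here in red. The red genes were picked with these values known, from 0.39 for Trim30d to 5.34 for Trim30a, and the 54 others lie between -0.27 and 0.45.

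The Trim30 stretch lies among olfactory receptor genes on chromosome 7. In the gene order of GRCm38.p6 it runs from Trim6 over Trim34a, Trim5, Trim12a, Trim34b, Trim12c, Trim30b, Trim30c, Trim30a and Trim30d to Trim30e-ps1, and Trim21 lies outside it on the same chromosome. To see whether the difference of Trim30a extended to genes around it that are no members, the 15 genes with a feature on each side were taken with Trim6 and Trim30e-ps1. The members in the stretch were left out, among them Trim12c (1.62), Trim34a (0.60), Trim12a (0.45) and Trim30d (0.39). The counts below do not cover them. Of the 32 genes taken, 0 were higher and 0 lower at an adjusted p under 0.05 in limma (1 and 0 at an unadjusted p under 0.05). Over all genes 1.85% were higher and 1.04% lower, so counts of 0 are close to those shares. The gene next to the stretch on the side of Trim6, Olfr649, had a difference of -0.08 (adjusted p = 0.89), and the one on the side of Trim30e-ps1, Olfr651, had 0.06 (adjusted p = 0.911). All 32 had means under the median of each array in both lines (4.86 to 7.37), where a lower level in H10 cells or a small difference would hardly be seen.

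**Figure D4:**
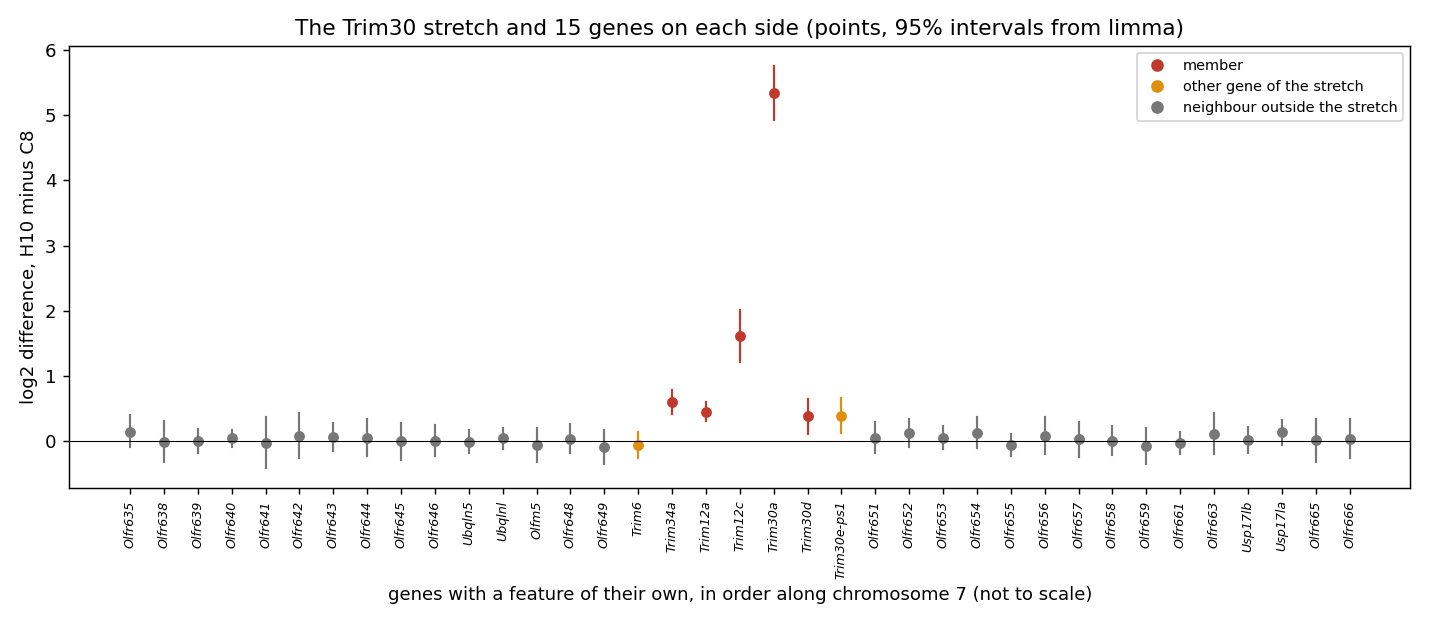
Log2 difference of H10 minus C8 (vertical axis) for genes with a feature of their own in their order along chromosome 7, evenly spaced, with 95% intervals from limma as vertical lines. The members of the stretch are in red, Trim6 and Trim30e-ps1 in orange and the 15 genes on each side in grey; outside the stretch the differences lie between -0.08 and 0.15.

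The interferon pathway was examined through 24 ligands, receptor chains and signal transducers of type I interferon, of which 19 had a feature of their own. Of these, 3 were higher in H10 cells by limma and 0 lower, against 1.85% and 1.04% of all genes. Without adjustment, 4 and 1 passed at p under 0.05, and the median difference was 0.05. Irf7, which drives interferon genes, was higher by 3.71 (standard error 0.19, adjusted p = 0.000639). Irf9, a DNA-binding factor that reads the ISRE, was higher by 1.06 (standard error 0.09, adjusted p = 0.00405), and Irf1 by 0.78 (standard error 0.11, adjusted p = 0.019). The list was drawn up with earlier results of these arrays known. Irf7, like Trim30a, is also among the genes that the study singled out on them. The direction of these 3 calls is therefore not independent evidence. Stat2 had a difference of 0.66 (adjusted p = 0.0765), and Irf8, a factor of macrophage identity, of -0.52 (adjusted p = 0.0943). The receptor chains Ifnar2 and Ifnar1 had differences of -0.01 (adjusted p = 0.979) and 0.07 (adjusted p = 0.834), the kinase Jak1 of 0.13 (adjusted p = 0.644) and Tyk2 of -0.01 (adjusted p = 0.992). Ifnb1, the gene of interferon beta, had a mean of 6.32 ± 0.15 in H10 and 6.23 ± 0.20 (SD, n = 3) in C8 cells, under the lower quartile of the arrays, with a difference of 0.09 (adjusted p = 0.885). The 9 interferon alpha genes measured had differences from -0.13 to 0.07. All of them but Ifna5 had means under the median of each array, where a difference in RNA moves the value little. Irf1 lost its call when any H10 replicate, C8 replicate 2 or C8 replicate 3 was left out, and Stat2 passed without H10 replicate 1 at 0.79 (adjusted p = 0.0396 from limma). With the replicate number as a block Irf1 did not pass either. On the mean of its features in place of the brightest one, Irf1 differed by 0.38 (adjusted p = 0.0358).

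A further list held 18 genes whose products the TRIM proteins above are known to bind, modify or act beside, of which 17 were measured. It was drawn up with earlier results of these arrays known, so its calls are not independent evidence. Of the 17, 2 were higher in H10 cells by limma and 0 lower, against 1.85% and 1.04% of all genes. At an unadjusted p under 0.05 the counts were 3 and 1, and the median difference was 0.03. Ddx58, which encodes RIG-I, the target of Trim25, was higher by 2.75 (standard error 0.18, adjusted p = 0.00151). Casp1, the protease of the inflammasome, was higher by 1.03 (standard error 0.12, adjusted p = 0.0107). Casp1 did not pass without H10 replicate 2, without H10 replicate 3 or without C8 replicate 2, which left a count of 1. The genes of the Trim30a targets did not pass. Arrays read RNA, so a loss of these proteins, which Trim30a is known to promote, was not measured. Tab2 had a mean of 12.79 ± 0.07 in H10 and 12.81 ± 0.06 (SD, n = 3) in C8 cells, a difference of -0.02 (95% interval -0.18 to 0.14, adjusted p = 0.954), and Tab3, named here as the other target of Trim30a, had a difference of 0.11 (95% interval -0.05 to 0.27, adjusted p = 0.632). The other genes with the highest means that did not pass were Usp14, a deubiquitinase that works with Trim14, at 0.03 (adjusted p = 0.918), Vcp at 0.05 (adjusted p = 0.869) and Rela, a subunit of NF-kB, at -0.12 (adjusted p = 0.602). Mavs, the adaptor that Trim14 joins, had a difference of -0.05 (adjusted p = 0.947).

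**Figure D5:**
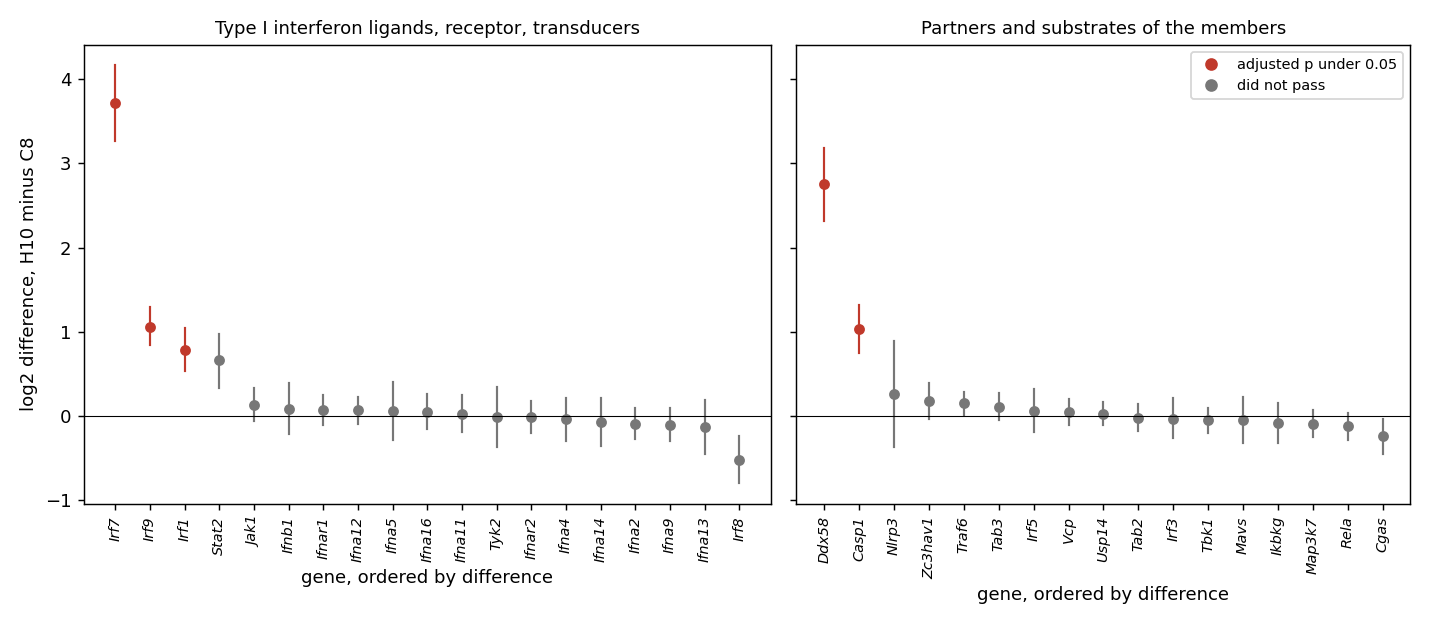
Log2 difference of H10 minus C8 (vertical axis) for genes of type I interferon signalling (left) and for partners and substrates of the TRIM proteins (right), ordered by difference, with 95% intervals from limma as vertical lines and genes past an adjusted p of 0.05 in red. Irf7, Irf9, Irf1, Ddx58 and Casp1 lie above 0 in red, and the interferon genes and receptor chains lie near 0. The interferon genes other than Ifna5 had means under the median of each array.

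The genes whose values over the 6 arrays were most like those of Trim30a, by Pearson's r and leaving out the members, were Dpysl2 (r = 0.9994), Ifi203 (r = 0.9992), Eya3 (r = 0.9990), Ifi202b (r = 0.9989) and Oas2 (r = 0.9982). The 6 arrays fall into 2 lines, so r mostly reads the gap between them, and it is given as a description. Ifi203 and Ifi202b belong to the interferon-inducible p200 family and Oas2 is an oligoadenylate synthetase, with differences of 2.92, 4.70 and 2.05. Dpysl2 and Eya3 differed by 0.46 and 0.52, with little spread within a line. Among the members, r with Trim30a ranged from 0.8306 for Trim30d to 0.9921 for Trim12a.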

How the data were processed

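RNA of H10 and C8 cells was measured on 3 Affymetrix mouse gene arrays each, which the authors processed with Affymetrix Expression Console, per the labels. The deposited values are log2 expression values normalized by RMA, which corrects background, quantile normalizes and summarises the probes of a feature, so that small folds of dim features are compressed. The software version was not given in the sources used here, nor was the annotation release. Arrays have no read depth, and the precision is limited by their number.

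Of 35545 features, 21781 carried 1 gene symbol in the platform annotation, 1621 several and 12143 none. Each of 19930 genes was read from its single-symbol feature with the highest mean, and features with several symbols were reported as shared. Symbols were checked by Entrez identifier (21690 matched, 0 changed). H10 was compared with C8 with limma 3.58.1 in R 4.3.3 (lmFit and eBayes, two-sided, no covariates), with Benjamini-Hochberg adjustment over all features and a threshold of 0.05. The fit was tested on simulated data with known changes. Promoter letters were searched with Python 3.11.15 in RefSeq windows (GRCm38.p6), and windows were aligned locally with Biopython 1.88 (match 2, mismatch -3, gap opening -5, gap extension -2); alignments of at least 100 bases were reported.

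The members and all gene lists were chosen with earlier results of these data known. Genes were named by rule: all 10 members, of each list up to 6 past the test in each direction by size and up to 4 not past it by highest mean, the genes next to the stretch, and the 5 most like Trim30a. Trim30e-ps1 counts both as a TRIM gene and as a neighbour, as does Trim6. Genes named outside the rule are Pml, Trim16, Trim26, Trim2, Stat2, Irf8, Ifnb1, Ifna5, Tab3 and Mavs, chosen after their values were seen. Alternatives left out each array or the replicate 1 arrays of both lines, added the replicate number as a block, and changed the scaling, the filter on dim features, the feature that stands for a gene, the prior, the set adjusted over and the threshold.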

Additional observations from a re-analysis of the deposited data

How the results depend on the processing

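No difference of a member changed sign under any alternative: Trim30a ranged from 5.20 to 5.62, Trim12c from 1.45 to 1.84 and Trim21 from 0.86 to 1.04, and these 3 genes passed in all 16 settings other than the fold of 5. The members were picked with this comparison known and every setting draws on the same arrays, so nothing is read from this. The number of members higher was 5 in the fit reported, 3 to 5 when 1 array was left out, 3 without the replicate 1 arrays of both lines, 3 at an adjusted p under 0.01 and 1, Trim30a, with a fold of 5 or more. It was 6 with the filter on dim features, where Trim25 and Trim14 passed and 6 members were tested, and 6 with the intensity trend and robust prior and with adjustment over 1 feature per gene, where Trim25 passed. The number of other TRIM genes higher was 0, and 0 to 1 when 1 array was left out. It was 1 without the replicate 1 arrays of both lines (Pml), 1 with the filter on dim features (Trim16, 0.30, adjusted p = 0.0294 from limma) and 1 when shared features were read too (Trim5, on the feature it shares with Trim12c). The number of partners higher was 2, 1 to 2 when 1 array was left out, and 1 both at an adjusted p under 0.01 and with a fold of 5 or more. Of the interferon list, 3 were higher, and 2 to 3 when 1 array was left out. The count was 2 at an adjusted p under 0.01 and 1 with a fold of 5 or more. It was 4 without the replicate 1 arrays of both lines and with the filter on dim features, where Stat2 passed too. With that filter 1, Irf8, was lower (adjusted p = 0.0366 from limma). The filter tests fewer features, 17939 of 35545, and leaves out Trim12a, Trim30d and every neighbour on chromosome 7. Otherwise the cause was not tested. The replicate numbers were not taken to pair the arrays, since the deviations of same-numbered arrays from the line means correlated at 0.17, -0.00 and -0.12 and 2 of 6 arrays were closest to their own number; the replicate 1 arrays do stand apart together on the second principal component. With the replicate number as a block, 3 members, 1 partner and 2 genes of the interferon list were higher; Casp1 and Irf1 were not among them.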
